A study of Mus musculus with 32 samples.

Results

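Interferon-stimulated genes were followed in mouse brain after a stroke-like injury, as a list of 35 genes among the 17877 genes of a bead array. The members were the listed genes whose name stood on the array, which found 26. The other 9 stood there under older names and were found through their RefSeq accession: Isg15, Ifi44, Irf9, Rsad2, Gbp3, Iigp1, Irgm1, Xaf1 and Eif2ak2. Male wild-type mice on a C57BL/6J background, 8 to 10 weeks old, had the middle cerebral artery blocked by a suture for 2 h. The suture was then withdrawn, and tissue was taken after 2, 8 or 24 h of reperfusion (I/R). Sham controls were anaesthetized and had their neck opened with no occlusion, and when their tissue was collected is not given. The right cortex and the right striatum, labelled as the infarct area, were each measured on 4 arrays per group, in 8 groups and 32 arrays.

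Interferons are secreted proteins that cells release when they sense viral or misplaced nucleic acid. Type I interferons signal through JAK kinases to the factor ISGF3, which includes STAT2 and IRF9 and binds the interferon-stimulated response element (ISRE). Interferon gamma acts mainly through the gamma-activated site (GAS), and IRF1 is a classic target of that route. In the brain, microglia, astrocytes, endothelium and incoming leukocytes can all respond.

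Promoter sequence came from RefSeq, with 300 bases per start site on build GRCm38.p6, and 28 of the 35 genes had an entry. An ISRE core was searched on both strands as GAAA, any 2 bases and GAAA, and a GAS core as TTCNNNGAA, which reads the same on both strands. The ISRE core stood in the promoters of 16 of the 28 genes, or 57.1%, against 3.99% of the 27025 genes with an entry. The GAS core stood in 9, or 32.1%, against 9.55% of all genes. The sequences below show the ISRE cores of some genes whose levels are followed here and the GAS core of Irf1. They also show those of Ifit1, which the array did not detect. Cores of other followed genes, such as Ifitm2 and Rsad2, are not shown. Oasl2 and Irf9 held neither core, and Usp18 had no entry. Each is given 5′ to 3′ on the gene's own strand with the matches in capitals. In Bst2 a GAS match overlaps the start of the ISRE match, and in Igtp a GAS match ends shortly before it. Neither GAS match is capitalized. A match is a description of the letters and not a measured binding site.
Isg15, chr4:156200855-156200916, minus strand: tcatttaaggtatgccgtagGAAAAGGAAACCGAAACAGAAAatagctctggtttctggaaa
Bst2, chr8:71537567-71537622, minus strand: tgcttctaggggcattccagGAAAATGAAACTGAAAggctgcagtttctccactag
Gbp2, chr3:142620584-142620633, plus strand: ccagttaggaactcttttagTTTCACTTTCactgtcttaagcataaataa
Igtp, chr11:58199502-58199551, plus strand: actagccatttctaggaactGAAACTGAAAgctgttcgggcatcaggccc
Ifit1, chr19:34640765-34640833, plus strand: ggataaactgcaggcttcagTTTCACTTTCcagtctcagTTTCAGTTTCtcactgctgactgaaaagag
Irf1, chr11:53769904-53769952, plus strand: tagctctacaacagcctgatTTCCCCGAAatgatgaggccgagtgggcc
The Isg15 promoter held 3 overlapping ISRE cores ending 57 bases before the start site, and Bst2 held 2 ending 115 bases before it. Gbp2, Igtp and Ifit1 had theirs within 104 bases of the start site. The GAS core of Irf1 began 90 bases before the start site.

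Levels below are background-corrected, quantile-normalized signals on the log2 scale, so a difference of 1 is a doubling of signal. A gene entered a test if its brightest probe had a detection p under 0.05 on every array of any 1 group in that tissue. Changes were tested with limma over every gene that entered, and a gene was called changed at a Benjamini-Hochberg adjusted p under 0.05. Such p-values rest on the spread between arrays within groups, pooled over all groups fitted and moderated across genes. They therefore do not follow a wider or narrower spread in 1 of the compared groups. The labels do not say whether a cortex and a striatum array came from 1 animal. Median raw signal per array ran between 57.2 and 103.7, and 49.85% to 55.25% of probes were detected per array. Sham arrays and each reperfusion time sat at their own positions on the slides, so slide position and group cannot be told apart. The cortical marker Tbr1 averaged 7.04 ± 0.71 in sham striatum and 9.48 ± 0.07 in sham cortex (SD, n = 4 each). The striatal markers did not separate the tissues: Rgs9 averaged 10.99 ± 0.62 in sham striatum and 10.70 ± 0.22 in sham cortex, and Drd2 averaged 8.11 ± 0.26 in sham striatum and 7.79 ± 0.24 in sham cortex (SD, n = 4 each). In whole tissue, a change in the number of cells of a type and a change in RNA per cell cannot be told apart.

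Some arrays stood apart for these genes. Cortex 24 h replicate 1 was the highest of its group for 18 of 19 tested members, with a mean level of 9.16 against 7.44 to 7.81 on the other 3 arrays. Striatum 24 h replicate 1 was the highest for 17 of 20 members, and replicate 4 was the lowest for 18 of 20. Mean levels in that group were 8.66, 7.64, 8.36 and 7.03. On striatum 24 h replicate 4 the median member lay 0.21 below its sham mean. For genes called at 24 h, values without these arrays are given where a call was lost or the change moved by over 1.5 times.

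Of the 35 genes, 19 entered the cortex tests and 20 the striatum tests, where Ifi35 was added. No array detected 8 of them: Isg20, Ifit1, Ifi44, Ifih1, Oas1a, Mx1, Iigp1 and Xaf1. Another 7 (Ifi47, Irf7, Oasl1, Mx2, Rtp4, Trim25 and Ddx58) were detected on 1 to 10 of 32 arrays and were not tested. Irf7, the amplifier of type I interferon production, had levels of 6.25, 4.67, 4.90 and 4.55 on the cortex 24 h arrays and was detected on 1 of them. It was detected on 0 of the other 28 arrays. Ifi47, an interferon-inducible GTPase, was detected on 3 of 4 striatum 24 h arrays, 1 of 4 cortex 24 h arrays and 0 sham arrays. Mx2, which encodes a dynamin-like antiviral GTPase, was detected on 2 striatum and 1 cortex 24 h arrays and on 0 sham arrays. For these sparsely detected genes no change was tested. The filter admits a gene through any group in which it is high, so the counts below describe the genes that entered and not the whole list.

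**Figure D1:**
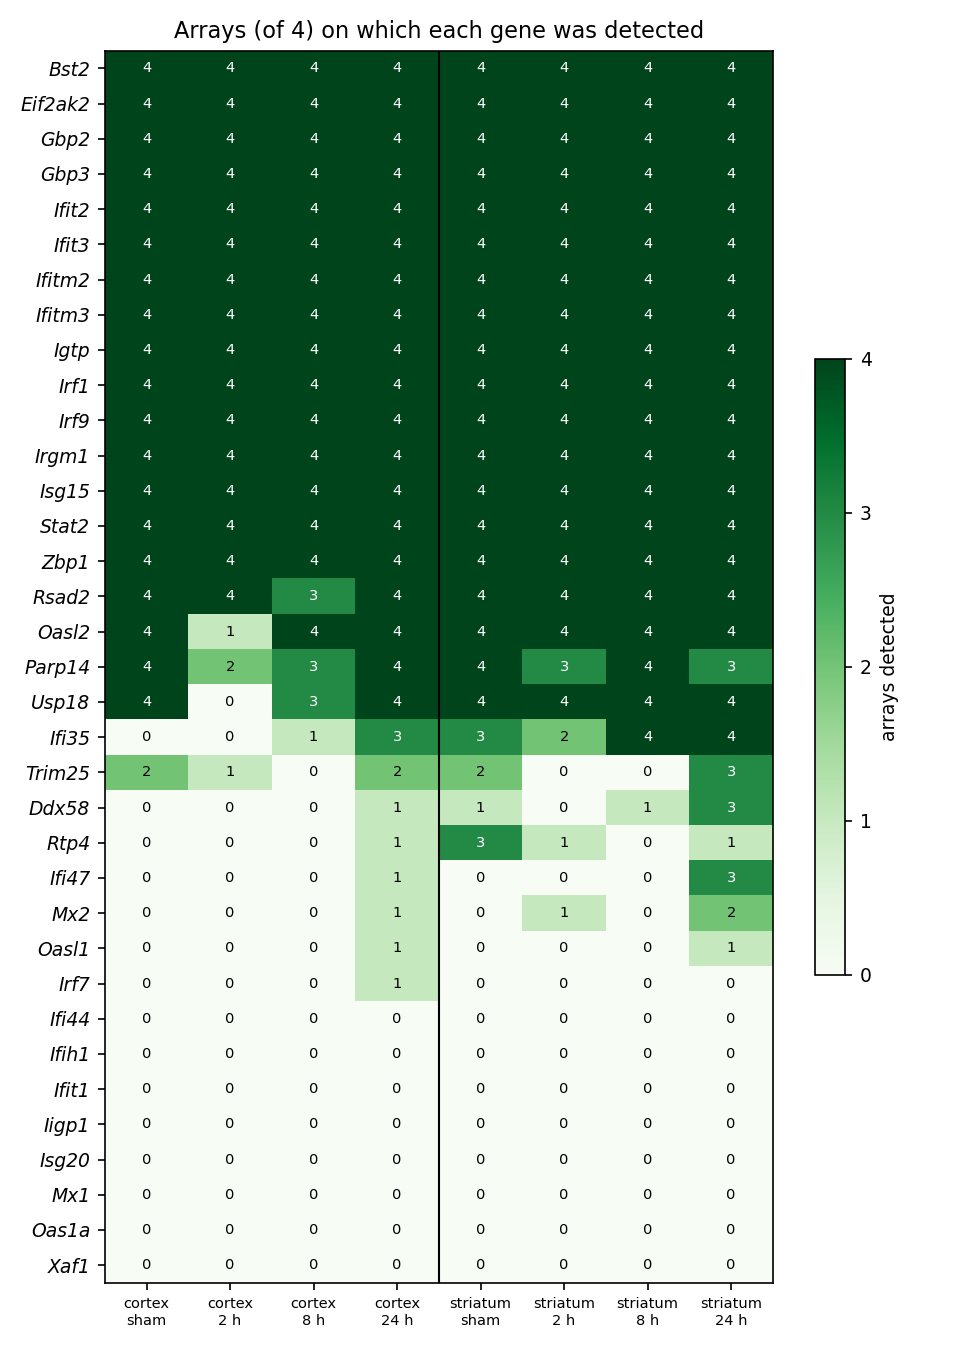
Number of arrays, of 4 per group, on which each of the 35 genes was detected (detection p under 0.05), with genes down the page and groups across. 15 genes were detected on all 32 arrays, and 8 genes on none.

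At 24 h the tested members stood higher than in sham in both tissues, and none was called lower. In the cortex 7 of 19 members rose, with a median change over all 19 of 0.85 against -0.03 over all 9567 genes tested. Of all genes tested in that comparison, 14.1% were called and 6.94% were called higher. Every 24 h array lay above every sham array for 7 members, a pattern seen in 6.92% of all genes. In the striatum 4 of 20 members rose, with a median of 0.66 against -0.02 over 9866 genes. There 17.6% of all genes were called and 9.37% were called higher. Only Irf1 had every striatum 24 h array above every sham array, and 11.4% of all genes had that pattern. The signs were alike across the lists, with 18 of 19 members above 0 in the cortex and 19 of 20 in the striatum, and Zbp1 below 0 in both.

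The 24 h counts moved with single arrays and with the set of arrays fitted. Here and below, counts under such other settings stand without the share of all genes called in that setting. They therefore do not single out the members. Cortex calls numbered 4 without 24 h replicate 1 (Ifitm3, Ifitm2, Gbp2 and Usp18) and 14 without 24 h replicate 2. They numbered 4 without sham replicate 2, 3 or 4, and 3 when the 24 h and sham arrays were fitted alone (Ifitm3, Ifitm2 and Irf1). Striatum calls numbered 14 without 24 h replicate 4. They numbered 1, which was Irf1, without 24 h replicate 1, without 24 h replicate 3 and with the 24 h and sham arrays fitted alone. Without sham replicate 1 there were 2, and without sham replicate 2 or 3 there was 1. With the slide as a block, 12 cortex and 8 striatum members were called. On the 3 slides of each tissue that held both groups, the median difference of the members was 0.52, 0.32 and 1.87 in the cortex and 0.84, 0.44 and 1.54 in the striatum.

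**Figure D2:**
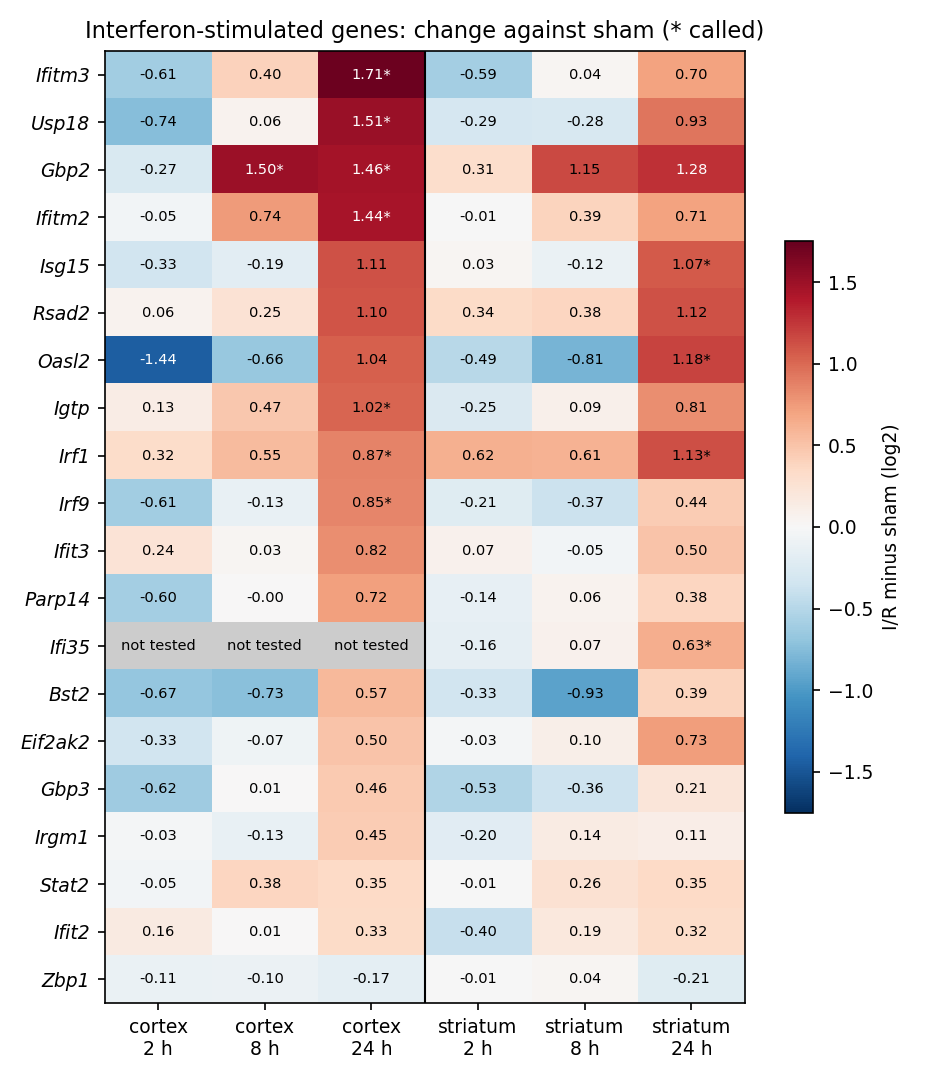
Change against sham (log2, I/R minus sham; red higher, blue lower) of the 20 tested genes, with genes down the page and tissue and reperfusion time across. Asterisks mark adjusted p under 0.05, which 7 cortex and 4 striatum genes reached at 24 h and only Gbp2 in the cortex reached at 8 h.

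Usp18 encodes the protease that removes ISG15 from proteins and damps the type I interferon receptor. On the cortex arrays it stood at 9.0, 6.66, 6.72 and 6.46 at 24 h, against 5.78, 5.53, 5.53 and 5.94 in sham. All 4 injured arrays lay above all 4 sham arrays, and Usp18 rose by 1.51 ± 0.41 (SE), with an adjusted p of 0.0226 from limma. Without replicate 1 the change was 0.92 (adjusted p = 0.0376), still called but over 1.5 times smaller. In the striatum it stood at 8.37, 7.10, 7.84 and 5.83 at 24 h, against 6.29, 6.33, 6.52 and 6.28 in sham, a difference of 0.93 (adjusted p = 0.0825). The groups overlapped only through replicate 4.

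Isg15 encodes the ubiquitin-like protein that is attached to other proteins during the interferon response. It stood at 8.42, 7.50, 8.08 and 6.34 on the striatum 24 h arrays, against 6.34, 6.41, 6.43 and 6.86 in sham. It rose by 1.07 ± 0.31 (SE, adjusted p = 0.0254), although replicate 4 matched the lowest sham array. Without replicate 1 the change was 0.80 (adjusted p = 0.0926), and without replicate 4 it was 1.49 (adjusted p = 0.000591). In the cortex Isg15 stood at 9.52, 7.08, 7.41 and 7.27 at 24 h, against 6.85, 6.78, 6.75 and 6.45 in sham. There the groups did not overlap, and the difference of 1.11 had an adjusted p of 0.063. Without replicate 1 the cortex difference was 0.54 (adjusted p = 0.157), and with the slide as a block it was called (1.21, adjusted p = 0.0288).

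**Figure D3:**
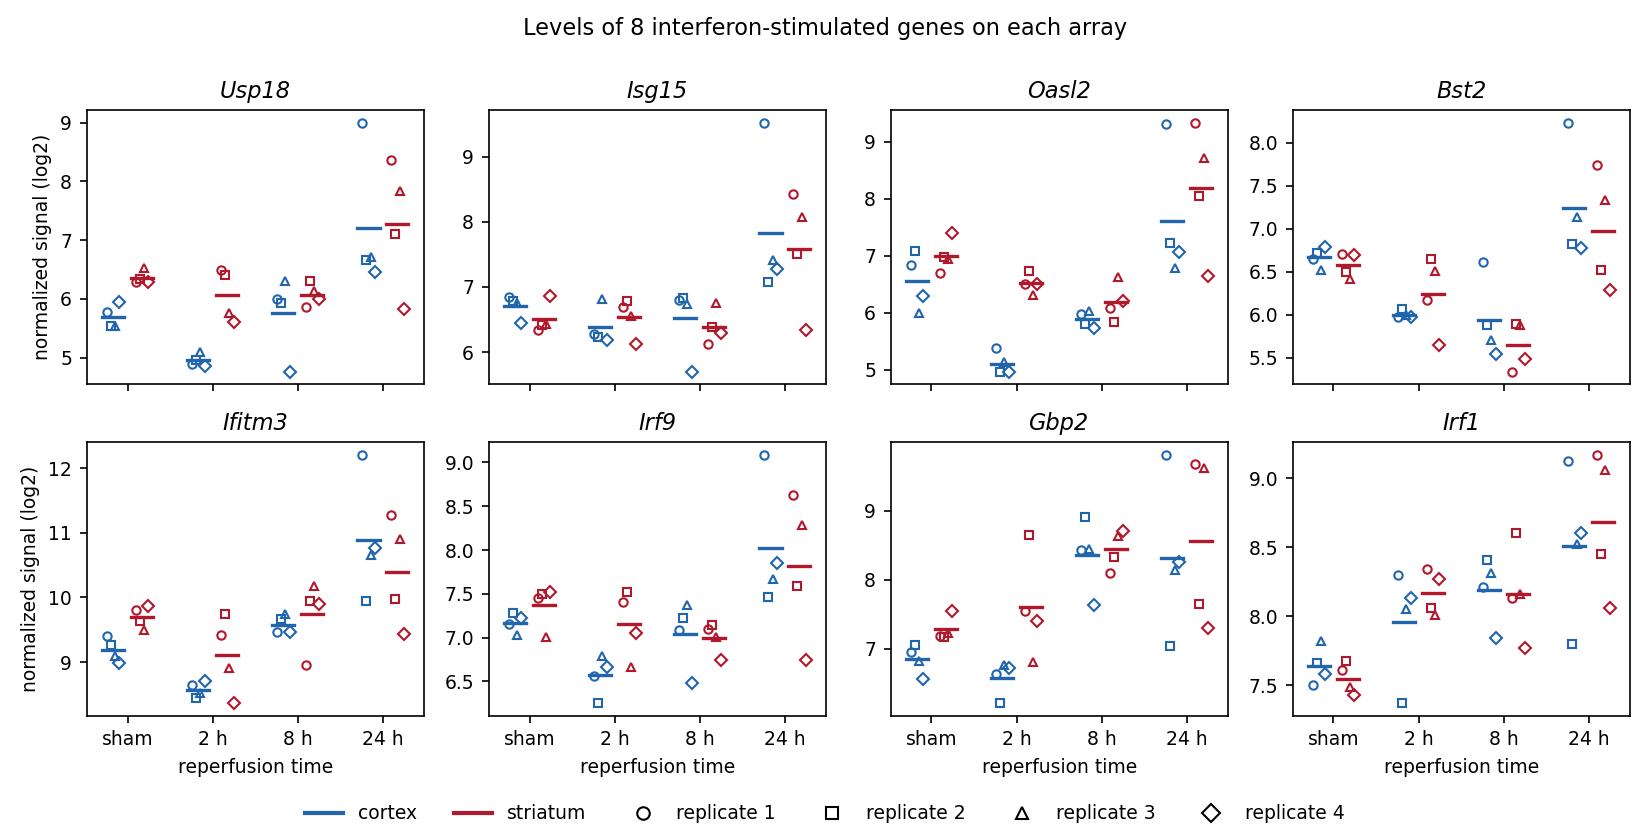
Normalized signal (log2) of 8 genes on every array by reperfusion time, cortex in blue and striatum in red, with a symbol for each replicate and a bar at the group mean (n = 4). Replicate 1 is the highest cortex 24 h array and replicate 4 the lowest striatum 24 h array in all 8 panels.

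Among the transcription factors, Irf1, an interferon regulatory factor induced by interferon gamma, stood at 9.17, 8.45, 9.06 and 8.06 on the striatum 24 h arrays, against 7.61, 7.68, 7.49 and 7.43 in sham. The groups did not overlap, and Irf1 rose by 1.13 ± 0.21 (SE, adjusted p = 0.00303). It was the 1 striatal call that was kept when any of 24 h replicates 1, 3 or 4 was left out, with changes of 0.97, 1.01 and 1.34. In the cortex Irf1 stood at 9.12, 7.80, 8.52 and 8.6 at 24 h, against 7.50, 7.66, 7.82 and 7.58 in sham. It rose by 0.87 (adjusted p = 0.0164), and without replicate 1 the change was 0.67 (adjusted p = 0.0581). Irf9, the DNA-binding subunit of ISGF3, stood at 9.09, 7.46, 7.67 and 7.85 on the cortex 24 h arrays, against 7.16, 7.28, 7.03 and 7.22 in sham. It rose by 0.85 (adjusted p = 0.0402), and without replicate 1 the change was 0.49 (adjusted p = 0.106). In the striatum the Irf9 difference was 0.44 (adjusted p = 0.304). Stat2, another ISGF3 subunit, differed by 0.35 in each tissue and was not called.

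Among the membrane proteins, Ifitm3 and Ifitm2, which block virus entry at cell and endosome membranes, had the lowest adjusted p-values of the cortex list. Ifitm3 stood at 12.21, 9.94, 10.66 and 10.76 on the cortex 24 h arrays, against 9.41, 9.26, 9.09 and 8.99 in sham. It rose by 1.71 ± 0.29 (SE, adjusted p = 0.00195), a 3.26-fold difference in signal. Without replicate 1 the change was 1.27 (adjusted p = 0.000345). Ifitm2 stood at 10.84, 8.80, 9.90 and 9.96 at 24 h, against 8.66, 8.56, 8.12 and 8.39 in sham cortex. It rose by 1.44 ± 0.26 (SE, adjusted p = 0.00295), and by 1.12 without replicate 1. For both genes all 24 h arrays lay above all sham arrays. In the striatum Ifitm3 differed by 0.70 (adjusted p = 0.173) and Ifitm2 by 0.71 (adjusted p = 0.0733). Bst2, which encodes tetherin, the protein that holds budding virus at the cell surface, differed by 0.57 in the cortex and 0.39 in the striatum at 24 h, and neither was called.

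The interferon-inducible GTPases act on membranes around intracellular pathogens. Gbp2, a guanylate-binding protein, stood at 9.81, 7.04, 8.14 and 8.25 on the cortex 24 h arrays, against 6.95, 7.05, 6.83 and 6.57 in sham. It rose by 1.46 ± 0.38 (SE, adjusted p = 0.0189), while replicate 2 lay within the sham range. Without replicate 1 the change was 0.96 (adjusted p = 0.0457). Igtp, an immunity-related GTPase also called Irgm3, stood at 8.70, 6.91, 7.45 and 6.98 at 24 h, against 6.58, 6.66, 6.35 and 6.38 in sham cortex. It rose by 1.02 ± 0.31 (SE, adjusted p = 0.0347), and without replicate 1 the change was 0.63 (adjusted p = 0.0958). In the striatum Gbp2 had the largest 24 h difference of the list that was not called, 1.28 with an adjusted p of 0.0553, with arrays at 9.68, 7.65, 9.62 and 7.30 against 7.19, 7.17, 7.23 and 7.55 in sham. Without replicate 4 it was 1.70 (adjusted p = 0.0101). Gbp3 differed by 0.46 in the cortex and 0.21 in the striatum. Irgm1 had 3 probes. Its brightest probe differed by 0.45 at 24 h in the cortex, with means of 12.63 at 24 h and 12.18 in sham. A dimmer probe, which was not tested, averaged 7.35 ± 0.69 at 24 h and 6.50 ± 0.16 in sham cortex (SD, n = 4 each). The rest of its probes are not given. In all, 13 members had over 1 probe, and for the others only the brightest is given.

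The remaining antiviral effectors included the RNA-binding and RNA-degrading systems. Oasl2, an oligoadenylate synthetase-like protein, stood at 9.33, 8.04, 8.72 and 6.65 on the striatum 24 h arrays, against 6.69, 6.97, 6.94 and 7.40 in sham. It rose by 1.18 ± 0.37 (SE, adjusted p = 0.0366), with replicate 4 below every sham array. Without replicate 1 the change was 0.80 (adjusted p = 0.128). Ifi35, an interferon-induced leucine zipper protein, stood at 6.73, 5.95, 5.88 and 5.43 at 24 h, against 5.66, 5.35, 5.31 and 5.18 in sham striatum. It rose by 0.63 ± 0.21 (SE, adjusted p = 0.043), and without replicate 1 the change was 0.38 (adjusted p = 0.152). Ifi35 was detected on 3 of 4 sham arrays and 2 of 4 arrays at 2 h in the striatum. It entered the tests only through the 8 h and 24 h groups, so its call carries that selection. Rsad2, which encodes viperin, had the widest spread: 8.92, 5.90, 6.48 and 6.70 on the cortex 24 h arrays, against 5.48, 6.11, 5.64 and 6.34 in sham. Its difference was 1.10 in the cortex (adjusted p = 0.133) and 1.12 in the striatum (adjusted p = 0.0967). Ifit2, Ifit3, Eif2ak2 (the double-stranded RNA-activated kinase PKR), Parp14 and Zbp1 were not called in either tissue at 24 h, with differences between -0.21 and 0.82.

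**Figure D4:**
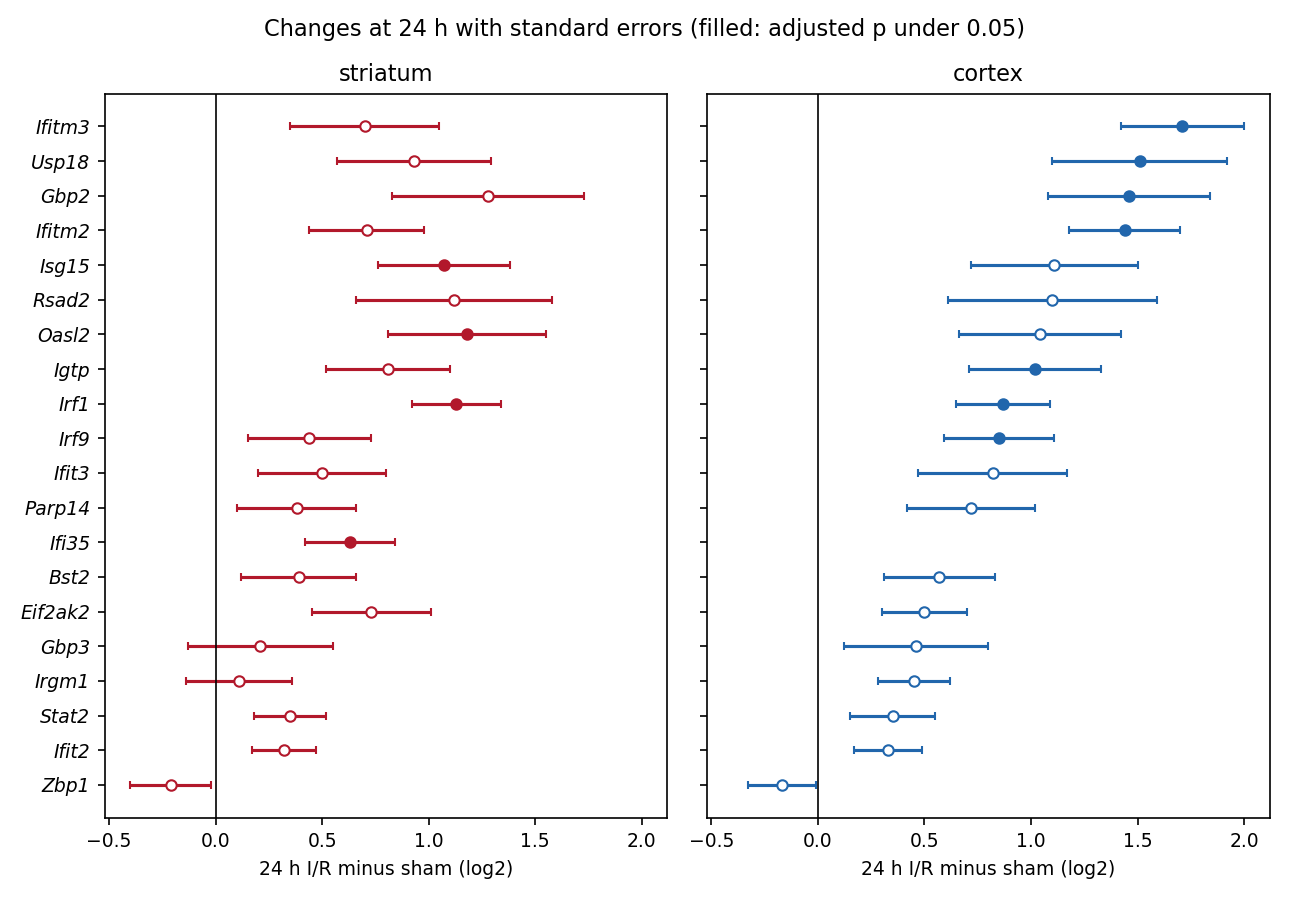
Difference between 24 h I/R and sham (log2, with standard error) of each tested gene in the striatum (left) and the cortex (right). Filled points have an adjusted p under 0.05. Ifitm3 is the highest in the cortex at 1.71 and Gbp2 the highest in the striatum at 1.28, and Zbp1 alone lies below 0.

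The responses of the 2 tissues at 24 h were compared directly, as the striatum response minus the cortex response. No member was called by limma, against 1.76% of 10081 genes. The largest difference was that of Ifitm3, with -1.01 (95% interval -1.97 to -0.05, adjusted p = 0.25), followed by Ifitm2 with -0.73 (95% interval -1.52 to 0.06, adjusted p = 0.312). For Ifitm3 the difference was -0.57 without cortex 24 h replicate 1 and -0.69 without striatum 24 h replicate 4. Genes called in 1 tissue are therefore not shown to differ between tissues.

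Markers of other cell types also varied between the 24 h arrays. The summed signal of 9 monocyte and macrophage markers was 13600, 1200, 4860 and 5530 on the cortex 24 h arrays, against 672 to 787 in sham. In the striatum it was 9320, 2110, 6610 and 1160 at 24 h, against 936 to 1720 in sham. The lowest 24 h array by these markers was also the lowest by mean member level in each tissue, and the highest was the same array too. Other marker sums given below shared this match in part. All 6 tested markers of this list (Cd68, Fcgr4, Lgals3, Lyz2, Ms4a6d and Spp1) rose in the cortex at 24 h and 4 rose in the striatum, while Ccr2 was detected on no 24 h array. The neutrophil sum had another order, 3150, 276, 763 and 11500 in the cortex at 24 h, against 234 to 253 in sham. In the striatum it was 2010, 456, 3400 and 268, against 252 to 391 in sham. The sum over 8 homeostatic microglia markers was 2280 to 2770 in sham cortex and 2050 to 2500 in sham striatum. On the cortex 24 h arrays it was 3270, 2620, 2910 and 3050, highest and lowest on the same arrays as the members. On the striatum 24 h arrays it was 2720, 2850, 2520 and 2820, in another order than the members. Of 6 tested endothelial markers, 4 rose in the cortex at 24 h (median of the list 0.83) and 1 in the striatum (median 0.59). The endothelial sum on the cortex 24 h arrays was 4240, 2260, 3070 and 2960, also highest and lowest on the same arrays as the members. On the striatum 24 h arrays it was 2910, 2690, 3230 and 2450, lowest on replicate 4 and highest on replicate 3. Of 10 T and NK cell markers, 8 were undetected at 24 h in the cortex and 9 in the striatum, and the 1 tested, Cd3e, rose in the striatum (0.63, adjusted p = 0.0482). In the cortex at 24 h 4 of 6 striatal markers fell, Drd1, Drd2, Pde10a and Rgs9, with a list median of -1.18. Of 5 astrocyte markers 2 rose there, Gfap by 1.45 (adjusted p = 0.004) and Aldh1l1 by 0.34 (0.0461). Their list median was 0.18, and the astrocyte sum ran from 7810 to 9290, against 7820 to 9850 in sham. In the striatum at 24 h 1 of 5 was called, Aqp4, which was lower (-0.68, adjusted p = 0.00498). In the cortex 1 of 2 tested red cell markers rose at 24 h, Hba-a1 by 4.55 (adjusted p = 0.00315). The part of these cells in the result was not tested.

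**Figure D5:**
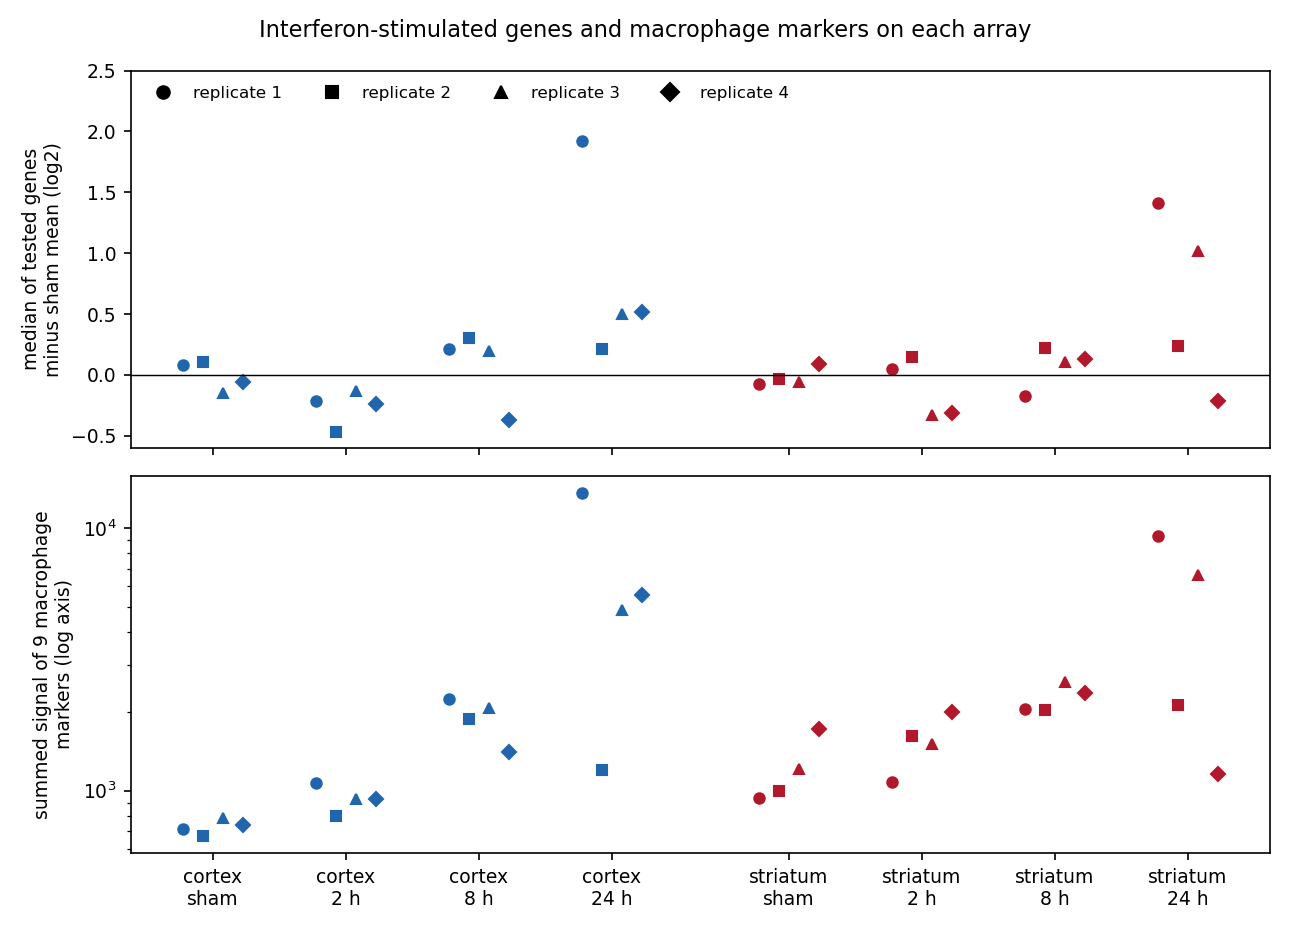
Top: median over the tested genes of each array's level minus the sham mean (log2). Bottom: summed signal of 9 monocyte and macrophage markers (log axis) on the same arrays, by tissue and reperfusion time. At 24 h cortex replicate 1 is highest in both panels (1.92 and 13600), and striatum replicate 4 is lowest in both (-0.21 and 1160).

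At 8 h the members lay on both sides of their sham levels. In the cortex the median change was 0.01 against -0.01 over all genes, and 1 of 19 members was called, where 7.13% of all genes were called. That gene was Gbp2, at 8.43, 8.91, 8.45 and 7.63 at 8 h, against 6.95, 7.05, 6.83 and 6.57 in sham, with no overlap. Gbp2, Ifitm2, Ifitm3 and Irf1 had every 8 h array above every sham array, a pattern in 8.29% of all genes, and 0 members the reverse. Gbp2 rose by 1.5 ± 0.38 (SE, adjusted p = 0.0267). The count fell to 0 without cortex 8 h replicate 2 or 3 and without any 1 of the 4 sham arrays. It was 5 when the 8 h and sham arrays were fitted alone. Among members not called, Ifitm2 stood at 9.10, 9.12, 9.13 and 9.33 at 8 h, against 8.66, 8.56, 8.12 and 8.39 in sham (0.74, adjusted p = 0.0934), and Bst2 differed by -0.73 (adjusted p = 0.0912).

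In the striatum at 8 h limma called 0 of 20 members, against 3.51% of all genes. The median change was 0.06. Gbp2 differed by 1.15 (adjusted p = 0.155), at 8.09, 8.33, 8.63 and 8.70 against 7.19, 7.17, 7.23 and 7.55 in sham. Bst2 stood at 5.34, 5.89, 5.88 and 5.49, against 6.70, 6.50, 6.41 and 6.69 in sham, a difference of -0.93 (adjusted p = 0.0646). Every 8 h array lay above every sham array for Gbp2 and Irf1, a pattern in 6.65% of all genes, and below for Bst2 and Oasl2, a pattern in 7.1% of all genes. With the 8 h and sham arrays fitted alone 4 members were called, Bst2 and Irf1 among them.

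At 2 h limma called 0 of 19 members in the cortex, where 1.16% of all genes were called. The levels leaned down: 14 of 19 differences were below 0, with a median of -0.27 against -0.01 over all genes. In the same comparison 4 of 6 endothelial markers fell, Cldn5 by 1.04, Flt1 by 0.86, Tek by 0.79 and Vwf by 0.68, with a list median of -0.73, and their part in the members' levels was not tested. For 6 members (Bst2, Eif2ak2, Ifitm3, Irf9, Oasl2 and Usp18) every 2 h array lay below every sham array, a pattern in 7.45% of all genes. Oasl2 stood at 5.39, 4.97, 5.13 and 4.97 at 2 h, against 6.84, 7.09, 6.00 and 6.29 in sham, a difference of -1.44 (adjusted p = 0.0774). It was detected on 1 of the 4 arrays at 2 h and on all 4 in sham. Usp18 was detected on 0 arrays at 2 h and on 4 in sham, so its level at 2 h has only a bound, at least 1.27-fold lower (adjusted p = 0.411). With the 2 h and sham arrays fitted alone 6 members were called, and with array weights 5, without the shares of all genes in those settings. In the striatum at 2 h limma called 0 of 20 members, against 0.182% of all genes. The median was -0.15, and Irf1 stood at 8.34, 8.06, 8.01 and 8.27, against 7.61, 7.68, 7.49 and 7.43 in sham, a difference of 0.62 (adjusted p = 0.276).

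The 24 h arrays were also set against the 8 h arrays, with median differences of 0.70 in the cortex and 0.56 in the striatum. Endothelial markers were higher at 24 h than at 8 h too, 6 of 6 in the cortex (median 1.37) and 5 of 6 in the striatum (median 1.00). Of 8 homeostatic microglia markers 2 were called higher in the cortex and 3 in the striatum, and of 6 macrophage markers 1 and 2 in the same order of tissues. The part of these cells in the members' differences was not tested. In the cortex 6 of 19 members were higher at 24 h than at 8 h and 0 lower, where 6.69% of all genes were called and 3.26% were called higher. They were Oasl2 (1.70, adjusted p = 0.0143), Usp18 (1.46, 0.0424), Ifitm3 (1.31, 0.0137), Bst2 (1.30, 0.00722), Irf9 (0.98, 0.0336) and Irgm1 (0.58, 0.0424), named after their values were seen. Oasl2, Ifitm3 and Bst2 kept their calls without cortex 24 h replicate 1, at 1.13, 0.87 and 0.97, and without 8 h replicate 2 or 4. Usp18, Irf9 and Irgm1 lost theirs in each case, and without 24 h replicate 1 they stood at 0.86 (adjusted p = 0.0661), 0.62 (0.0617) and 0.45 (0.124). With the 8 h and 24 h arrays alone 0 members were called. In the striatum 4 of 20 members were higher at 24 h than at 8 h, where 13.6% of all genes were called and 6.21% were called higher. They were Oasl2 (2.00, adjusted p = 0.00376), Bst2 (1.32, 0.00647), Usp18 (1.21, 0.035) and Isg15 (1.19, 0.0204), also named after their values were seen. The count was 12 without striatum 24 h replicate 4. It was 2, Oasl2 and Bst2, without 24 h replicate 1, without 8 h replicate 4 and with the 8 h and 24 h arrays alone. Without 24 h replicate 1 Isg15 stood at 0.92 (adjusted p = 0.0624) and Usp18 at 0.85 (0.112). Gbp2 was not called in this step, with differences of -0.04 in the cortex and 0.12 in the striatum (95% intervals -0.80 to 0.71 and -0.75 to 1.00).

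The rest of the pathway was read from lists of its other genes, whose counts stand beside the shares of all genes called at 24 h, 14.1% in the cortex and 17.6% in the striatum. Interferon ligands were mostly undetected: of 13 on the array 12 were detected in no group, Ifnb1 and Ifng among them. The exception, Ifna6, was detected on every array and was lower at 24 h in the cortex by 0.50 on the log2 scale (-0.50, adjusted p = 0.0268). Of 9 tested receptors and JAK-STAT genes, 2 rose in the cortex at 24 h, Stat3 (0.88, adjusted p = 0.045) and Il10rb (0.77, 0.0238). Il10rb was detected on no cortex 2 h or 8 h array, so its call may carry the selection made by the detection filter. In the striatum only Stat3 of 9 rose (0.97, 0.0119). Irf8, a myeloid interferon regulatory factor, rose at 24 h by 0.92 in the cortex (adjusted p = 0.0105) and by 0.67 in the striatum (0.0264), as 1 of 3 and 1 of 4 tested factors.

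Of the 5 sensors and adaptors tested in the cortex, Myd88 rose at 24 h (0.97, adjusted p = 0.0259) and Tlr7, the receptor for single-stranded RNA, at 8 h (0.87, 0.0141). In the striatum 0 of 4 were called by limma at 24 h. Of 8 MHC class I presentation genes, 0 were called in the cortex at 24 h and 2 rose in the striatum, Tap2 (0.78, adjusted p = 0.00706) and Psmb10 (0.56, 0.0059). The chemokine Cxcl10 was detected on 0 sham arrays of either tissue. Its striatum 24 h arrays stood at 7.90, 6.04, 7.61 and 4.75, detected on 3, and limma called it higher (adjusted p = 0.0125). Cxcl10 entered the striatum tests only through the 2 h or 8 h group, so its call carries that selection. It was the 1 gene of 6 called among interferon gamma targets and MHC class II genes in the striatum, where 17.6% of all genes were called. In the cortex 0 of 4 were called, and Cxcl10 was not among those tested. Its cortex 24 h arrays stood at 8.64, 5.11, 6.42 and 6.09, detected on 3, against 4.60, 4.55, 4.63 and 4.70 in sham. In the fit over both tissues its response differed by -0.11 (adjusted p = 0.952).

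A list of other interferon-stimulated genes had 15 tested in each tissue at 24 h. In the cortex 2 rose, Plscr1 (0.97, adjusted p = 0.0254) and Ifi30 (0.96, 0.00729), and in the striatum 3 rose, Samd9l (0.84, 0.00881), Parp12 (0.52, 0.0443) and Cmpk2 (0.44, 0.0182). Those counts are 2 and 3 of 15 genes, beside 14.1% of all genes called in the cortex comparison and 17.6% in the striatum one. Median changes of that list were 0.38 in the cortex, against -0.03 over all genes, and 0.22 in the striatum, against -0.02. Among 5 tested negative regulators, 2 rose in the cortex at 24 h, and 3 rose and 1 fell in the striatum. Socs3, the feedback inhibitor of JAK signalling induced through STAT3, stood at 9.51, 7.55, 8.78 and 8.80 on the cortex 2 h arrays, against 6.10, 5.94, 6.24 and 6.29 in sham. In the cortex Socs3 rose at each time in turn by 2.52, 2.47 and 2.86 (adjusted p = 0.0443, 0.0181 and 0.00575). In the striatum Socs3 rose by 3.39, 2.89 and 2.87 in the same order of times (adjusted p = 0.0374, 0.022 and 0.00781). Ptpn6, the phosphatase SHP-1, rose at 24 h by 1.30 in the cortex (adjusted p = 0.00452) and by 0.55 in the striatum (0.0482), Ptpn11 rose there by 0.34 (0.0112), and Cish fell by 0.70 in the striatum (0.00841).

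Some of these pathway calls were lost when 1 array was left out, by fits that were chosen after seeing the data. Of the 8 fits that each left out 1 compared array, Stat3 in the cortex at 24 h lost its call in 7. Ifna6 lost its call there in 6, Myd88 and Plscr1 in 5 and Il10rb in 4. In the striatum at 24 h Ptpn6 lost its call in 7 of 8, Irf8 and Parp12 in 5 and Cmpk2 in 3. These losses were therefore not particular to 24 h replicate 1. Without cortex 24 h replicate 1, Il10rb stood at 0.51 (adjusted p = 0.0707), Stat3 at 0.62 (0.154), Myd88 at 0.68 (0.0863), Plscr1 at 0.77 (0.0891) and Ifna6 at -0.42 (0.0897), and none of these 5 was called. Without striatum 24 h replicate 1, Irf8 stood at 0.59 (adjusted p = 0.0845), Cmpk2 at 0.38 (0.0646), Parp12 at 0.37 (0.162) and Ptpn6 at 0.49 (0.124), and none of these 4 was called. With any 1 of the 8 compared arrays left out, Irf8, Ifi30, Ptpn6 and Socs3 kept their calls in the cortex. In the striatum Stat3, Tap2, Psmb10, Cxcl10, Samd9l, Socs3, Ptpn11 and Cish did so. The earlier Socs3 calls were less firm, and at 2 h its call was lost in 7 of 8 such fits in the cortex and in 8 of 8 in the striatum, with changes of at least 2.24 in the cortex and 3.25 in the striatum. At 8 h it was lost in 5 of 8 in each tissue. Tlr7 at 8 h kept its call in all 8.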

How the data were processed

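Intensity values were exported with BeadStudio 3.3.7 as mean bead signals without normalization, per the file headers. The detection values of the deposited tissue tables are fractions, 1 minus the detection p. The series table of ratio-like processed values was deposited with its scale and centring unstated (column medians 0.946 to 1.023) and served as an alternative. Signals of 25697 probes on 32 arrays were corrected with limma 3.58.1 (R 4.3.3; normal-exponential background from detection p, offset 16), quantile normalized and put on log2. Detection p in the cortex, deposited per gene, was read for each probe from the array's own signal-to-detection curve. On striatum arrays the curve put at least 99.926% of probes on the same side of 0.05 as the deposited p. The brightest probe stood for a gene. Linear models with empirical Bayes and a variance trend were fitted per tissue over 4 groups, and over 8 groups for the tissue difference. The fit was tested on simulated data.

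Replicates carry the sample titles' numbers. The series table and the descriptions number arrays differently (0 of 32 alike, 32 of 32 in the same group). 1 further array, with 8 columns and no matching sample, was not used here. The members, lists and tests were chosen with earlier results of these data known. The plan was to name, per comparison with sham, up to 6 called members by size and up to 2 members not called. Up to 3 called genes per list were to be named. Names went beyond this for the 7 called cortex members at 24 h, the striatal negative regulators at 24 h and marker genes. Values of further members not called were added after they were seen. Alternatives covered background, offset, scaling, filter, trend, array weights, slide and replicate blocks, the arrays fitted, and each array left out.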

Additional observations from a re-analysis of the deposited data

Results flagged for a closer look

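Of 96 groups of 4 arrays tested over 12 members, 13 held an array apart from the other 3, by Dixon's test of the gap relative to the group's range. Chance flags about 5% of such groups. Cortex 24 h replicate 1 was high for Isg15 (9.52), Oasl2 (9.31) and Usp18 (9.0). Cortex 8 h replicate 4 was low for Isg15 (5.70) and high for Ifitm2 (9.33), and cortex 8 h replicate 3 was high for Ifi35 (5.69). At 2 h in the cortex, replicate 3 was high for Isg15 (6.81) and replicate 1 for Ifitm2 (8.50). Irgm1 was high on striatum 8 h replicate 3 (13.15). In sham striatum, replicate 4 was high for Isg15 (6.86), Gbp2 (7.55) and Ifitm2 (9.08), and replicate 3 was low for Irf9 (7.01).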

How the results depend on the processing

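Counts of members called were 0, 1 and 7 in the cortex at 2, 8 and 24 h, 0, 0 and 4 in the striatum, 6 and 4 for 24 h against 8 h, and 0 for the tissue difference. With the 2 groups fitted alone they were 6, 5 and 3 in the cortex, 1, 4 and 1 in the striatum, and 0 and 2 for 24 h against 8 h. Array weights gave 5 at cortex 2 h, 5 at cortex 8 h and 1 at striatum 8 h. Counts under these alternatives stand without the share of all genes called in each. The slide block gave 2 and 12 at cortex 8 and 24 h, and 1 and 8 at striatum 8 and 24 h. Without the detection filter the cortex 24 h against 8 h count was 3. The authors' processed values, an alternative chosen after seeing the data, gave 1 at striatum 24 h. Each tissue's table normalized alone gave 0, 3 and 1 for cortex 8 h, 24 h and 24 h against 8 h. There the tissue difference was not run. Leaving out single arrays gave 4 to 14 at cortex 24 h, 3 to 9 for cortex 24 h against 8 h, 0 to 1 at cortex 8 h, 1 to 14 at striatum 24 h and 2 to 12 for striatum 24 h against 8 h. Correlations between arrays were taken on each gene's deviations from its group mean. By these deviations, same-numbered arrays of a tissue correlated between -0.27 and 0.375, with 17 of 48 pairs over 0.1. Same-numbered cortex and striatum arrays correlated, by the same deviations, between -0.322 and 0.566, with 4 of 16 pairs over 0.1. At 24 h they gave 0.566, 0.473, -0.079 and -0.322 for replicates 1 to 4. Since not every pair passed 0.1, the numbers were not taken as pairs. A replicate block gave 1 call at cortex 2 h (Oasl2), 10 at cortex 24 h, with Isg15 and Oasl2 added, and 3 at striatum 24 h, where Ifi35 lost its call (adjusted p = 0.0515). The causes of these shifts were not tested. Over 40 results for named members and 45 settings, 693 of 841 values kept direction and side of the threshold. Of the rest, 110 lost a call, 38 gained one and 0 reversed. Among the values kept, 31 came from the setting with members found by array name only. That setting repeats the main fit, so its values could not differ. Dim members limit the data: 15 of 35 were too dim to test, and 4 arrays a group limit precision.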
